A study of Homo sapiens with 3 samples.

Results

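The genes described here are the small nucleolar and small nuclear RNA genes measured in LoVo cells, a human colon adenocarcinoma line, and in LoVo-R8, 1 line derived from it that grows in irinotecan. Members were found by name: every probe set that names exactly 1 gene whose symbol starts with SNORA, SNORD, SCARNA or RNU. The rule gave 207 genes, measured by 225 probe sets, of 18417 genes measured by 19460 probe sets. They comprised 61 H/ACA box genes (SNORA), 115 C/D box genes (SNORD), 16 Cajal body genes (SCARNA) and 15 RNU genes, most of them spliceosomal. By RefSeq 12 of the RNU genes are small nuclear, RNU105B and RNU105C are small nucleolar and RNU6-501P is a pseudogene. Among the SNORD genes, SNORD13P1, SNORD13P2 and SNORD13P3 are pseudogenes too. The RNU counts and medians below cover all 15. The group was selected on differences already seen between these same 3 arrays, so the values below describe it and carry no test.

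Total RNA of 3 cultures was hybridised to 3 arrays of the Affymetrix Human Gene 1.0 ST design, 1 for each condition. LoVo parental is the drug-sensitive starting line. LoVo 8R- is LoVo-R8, raised stepwise from 0.1 to 8 µM irinotecan, cultured without the drug, and LoVo 8R+ is the same line cultured with 8 µM of it. Irinotecan is a prodrug whose active form traps topoisomerase I on DNA. A protocol shared by all 3 samples places irinotecan exposure 24 h before RNA purification. No source used here says if LoVo parental was also exposed. With 1 array each, no difference has a replicate check, and culture, resistance and array cannot be told apart.

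Small nucleolar RNAs (snoRNAs) guide chemical changes on other RNAs. C/D box RNAs direct 2′-O-methylation through fibrillarin, and H/ACA box RNAs direct pseudouridylation through dyskerin, mainly on ribosomal RNA. A few take part in cutting the ribosomal RNA precursor instead. Cajal body RNAs do the same work on spliceosomal small nuclear RNAs (snRNAs), which form the core of the splicing machinery. Most human snoRNAs are cut out of introns of a host gene, whereas snRNA genes have promoters of their own.

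A level is the log2 value deposited for a gene, and a difference is one level minus another, so that 1 stands for 2-fold. Levels of different genes come from different probes and are not set against each other. The members are genes of 60 to 421 bases, with a median of 98, and a mature small RNA, its precursor and the unspliced host RNA cannot be told apart on these arrays. RNA was purified on RNeasy mini columns, and how much RNA this short each preparation kept was not tested. With 1 preparation per condition, a difference in that recovery and a difference between cultures cannot be told apart. The medians of the 3 arrays over all probe sets lay at 6.94, 6.95 and 6.94 in LoVo parental, LoVo 8R- and LoVo 8R+. Of the 9 colon epithelial markers, 8 were above the array median in LoVo parental, 7 in LoVo 8R- and again 8 in LoVo 8R+. Their summed log2 levels were 95.4, 85.9 and 88.4, and CDH1, CEACAM5 and LGALS4 were at least 2-fold lower in both LoVo-R8 arrays. KRT20, a marker of differentiated colon cells, was at 6.40, 6.13 and 6.13, below the array median on each array. Fibroblast markers summed to between 35.2 and 35.5 over 6 genes, leukocyte markers to between 23.3 and 23.8 over 4, and endothelial markers to between 22.0 and 22.6 over 4.

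Most small RNA genes stood alike in LoVo 8R- and LoVo parental, and many stood higher in LoVo 8R+ than in either. Between LoVo 8R- and LoVo parental, 1 of the 207 was at least 2-fold higher, where 1.64% of all genes were. At least 2-fold lower were 6 of 207, or 2.90%, where 2.78% of all genes were. Between LoVo 8R+ and LoVo parental, 30 of 207 were at least 2-fold higher, or 14.5%, where 2.25% of all genes were. Lower by that much was 1, SNORA13, against 2.3% of all genes. Between LoVo 8R+ and LoVo 8R-, the same line with and without the drug, 28 of 207 were at least 2-fold higher, or 13.5%, where 0.527% of all genes were. None was 2-fold lower there, against 0.114% of all genes. Because the group was singled out on these arrays, nothing is read from the distance to the background. In RNA of whole cultures, more cells with an RNA and more RNA per cell cannot be told apart.

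Over all genes, 97 were above LoVo 8R- in LoVo 8R+ by 2-fold or more. The 28 small RNA genes made up 28.9% of them and 7 of the 10 with the highest differences, while the members are 1.12% of all genes. This restates the counts above for a group singled out on these arrays, and nothing further is read from it. The median difference of the 207 was 0 for LoVo 8R- against LoVo parental, 0.09 for LoVo 8R+ against LoVo parental and 0.20 for LoVo 8R+ against LoVo 8R-. The median over all genes was 0 in each. LoVo 8R+ held the highest level of 111 of the 207 genes, or 53.6%, compared with 22.3% of all genes. The lowest level was in LoVo 8R- for 79 of the 207, or 38.2%, compared with 23.4% of all genes. Levels were tied on 2 or more arrays for 61 of the 207, and for 4801 of all 18417 genes.

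The classes were not alike in how far they stood apart in LoVo 8R+. Of the 15 RNU genes, 6 (40%) exceeded LoVo parental and 7 (46.7%) exceeded LoVo 8R- by 2-fold or more in LoVo 8R+. Their medians were 0.75 and 0.92. Of the 61 SNORA genes, 10 (16.4%) and 7 (11.5%) did, with medians of 0.20 and 0.29. Of the 115 SNORD genes, 11 (9.57%) and 13 (11.3%) did, with medians of 0.01 and 0.11. Of the 16 SCARNA genes, 3 (18.8%) and 1 (6.25%) did, with medians of 0.26 and 0.37. Over all genes 2.25% and 0.527% did, and nothing is read from the distance to these shares. In LoVo 8R- against LoVo parental the class medians lay between -0.03 and 0. The SNORD median covers 46 copies of the repeat families SNORD113, SNORD114, SNORD115 and SNORD116, of which the last pair of families lie in the Prader-Willi region of the genome. Those copies had levels of at most 5.97 and none reached 2-fold in any comparison. The 69 other SNORD genes had a median of 0.35 in LoVo 8R+ against LoVo 8R-.

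**Figure D1:**
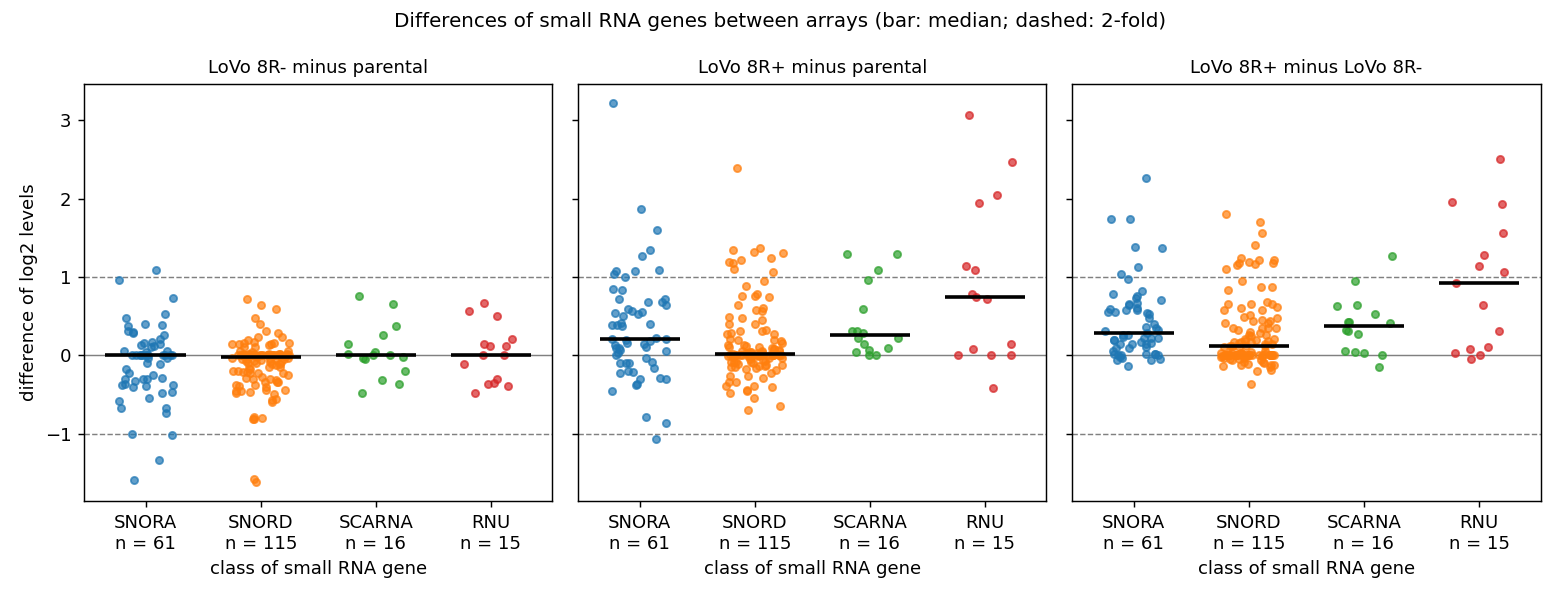
Difference of log2 levels for each of the 207 small RNA genes by class, in the 3 comparisons of arrays. Each point is 1 gene, black bars are class medians and dashed lines mark 2-fold; the points of LoVo 8R+ reach 3.22 above LoVo parental, whereas in LoVo 8R- none lies above 1.09.

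The members nearest the 2-fold line were close to it. For LoVo 8R+ against LoVo parental, SNORA14A lay just inside at 1.00 and SCARNA9 just outside at 0.96. For LoVo 8R+ against LoVo 8R-, SNORA7B lay inside at 1.04 and SNORA3B outside at 0.97. Among lower genes in LoVo 8R-, SNORA67 lay inside at -1.01 and SNORD30 outside at -0.81. The gene furthest below 0 in LoVo 8R+ against LoVo 8R- was SNORD79, at -0.36.

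The RNU class had the highest median in both LoVo 8R+ comparisons, and its U4 and U5 genes led it. U4 holds U6 in an inactive pairing until the spliceosome is activated, and U5 aligns the exons that are joined. All 7 genes of U4 and U5 were higher in LoVo 8R+ than in both other arrays. RNU4-2, one of the U4 genes, was at 4.83 in LoVo parental, 5.40 in LoVo 8R- and 7.90 in LoVo 8R+. LoVo 8R+ thus stood 2.50 above LoVo 8R-, but the levels of RNU4-2 in LoVo parental and LoVo 8R- lay below the first quartile of those arrays, so the size rests on dim values. RNU4-1, the other U4 gene, was at 7.61, 7.74 and 9.66 in the same order. RNU4-1 was near its parental level without the drug and RNU4-2 was 0.57 above it, and both were highest with the drug.

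Of the U5 genes, RNU5E-1 was at 8.71, 9.21 and 11.17, and RNU5B-1 at 5.89, 6.55 and 7.83. Both were lowest in LoVo parental, higher in LoVo 8R- and highest in LoVo 8R+. RNU5A-1 was at 6.17, 5.82 and 6.89, RNU5D-1 at 4.26, 3.87 and 5.01, and RNU5F-1 at 2.998, 3.21 and 4.14. RNU5A-1 and RNU5D-1 were lower in LoVo 8R- than in LoVo parental and above LoVo 8R- in LoVo 8R+ by 2-fold or more. RNU5D-1 and RNU5F-1 lay below the first quartile of the array on each array. Copies of U4 and of U5 are close in sequence, and how far their probes read each other's RNA was not tested.

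Of the 8 other RNU genes, RNU4ATAC and RNU2-1 were also clearly highest in LoVo 8R+, and the rest lay close to LoVo parental or below it. RNU4ATAC, the U4 counterpart of the minor spliceosome, was at 9.29, 8.82 and 10.38, lowest in LoVo 8R- and 1.56 higher in LoVo 8R+. RNU2-1, which pairs with the branch point, was at 12.30, 12.44 and 13.08. The other 3 RNAs specific to the minor spliceosome stayed near their parental level or below it. RNU11 was at 7.05, 6.94 and 7.05, RNU12 at 7.17, 6.81 and 6.76, and RNU6ATAC at 6.57, 6.27 and 6.57. RNU105B, RNU105C and RNU6-501P differed by at most 0.15 between arrays. The main U1 genes were read by probe sets that name several copies, which the rule leaves out. Such a probe set for RNU1-1 to RNU1-4 was at 11.60, 11.55 and 12.55, and the others of that family differed by 0.95 to 1.01 between LoVo 8R+ and LoVo 8R-. The 8 U1 variant genes measured on their own, whose symbols start with RNVU1, were highest in LoVo 8R+ for 4 and in LoVo parental for 4. Their median difference between LoVo 8R+ and LoVo parental was 0.14. Between LoVo 8R+ and LoVo 8R- it was 0.35, with values from 0 to 0.75.

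**Figure D2:**
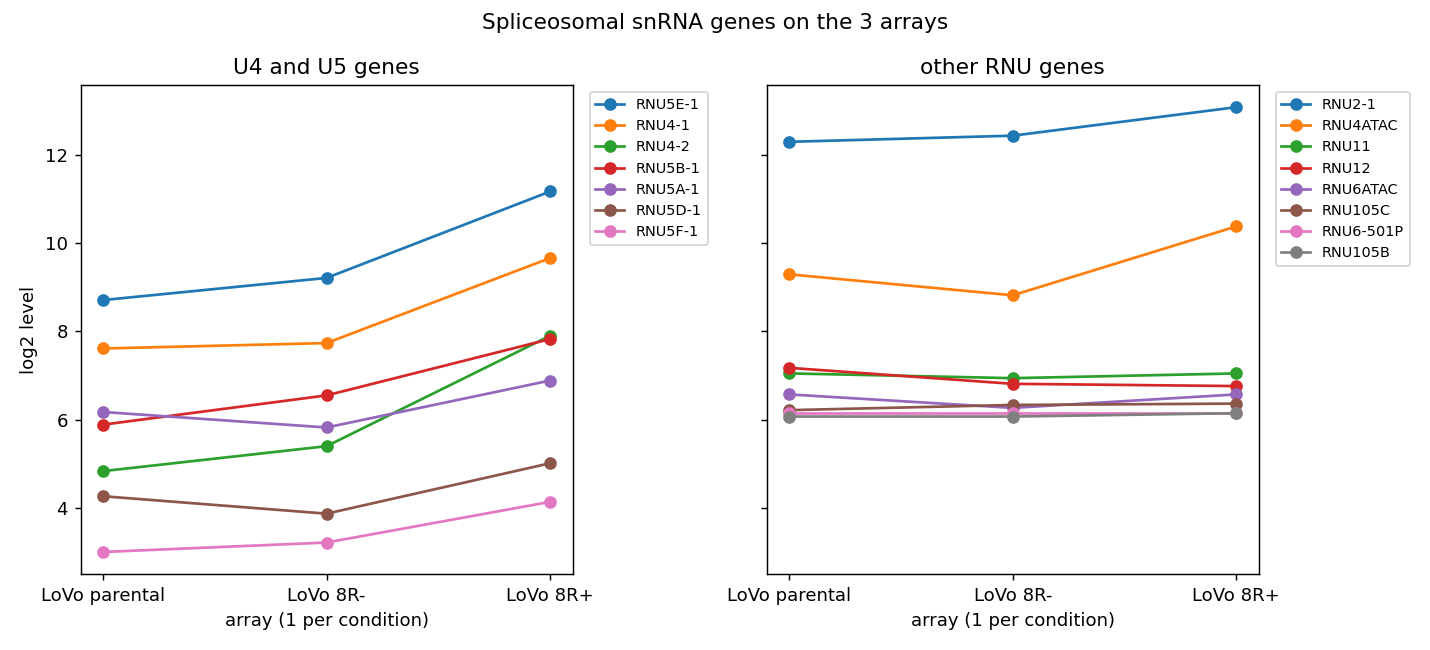
log2 levels of the 15 RNU genes on the 3 arrays, with U4 and U5 genes on the left and the others on the right. Each line is 1 gene with 1 array per condition; all 7 lines on the left end above both other arrays, while on the right RNU4ATAC and RNU2-1 end highest and the other lines stay nearly level or end lower.

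Among H/ACA genes, SNORA22 differed most. It was at 8.54 in LoVo parental, 9.50 in LoVo 8R- and 11.76 in LoVo 8R+, a difference of 3.22 between the last and the first. SNORA20 was at 9.34, 9.47 and 11.21, and SNORA49 at 7.80, 8.28 and 9.41. SNORA24 was at 9.96, 9.92 and 11.30, and SNORA3A at 10.99, 10.52 and 12.26. All these H/ACA RNAs were highest in LoVo 8R+, but SNORA24 and SNORA3A were not above LoVo parental without the drug.

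At the other end, SNORA29 was at 7.56, 5.96 and 6.69, SNORA3B at 8.55, 7.21 and 8.19, SNORA67 at 10.13, 9.13 and 9.34, and SNORA13 at 7.70, 6.68 and 6.62. These 4 were at least 2-fold lower in LoVo 8R- than in LoVo parental. SNORA29 and SNORA3B stood between both other arrays in LoVo 8R+, whereas SNORA13 was as low with the drug as without it. SNORA70F, the only member at least 2-fold higher in LoVo 8R-, was at 4.68, 5.77 and 5.75. It lay below the array median on each array, and in LoVo parental below the first quartile, so the size rests on dim values. Its spanning gene COBLL1 was 1.56 and 1.23 above LoVo parental in LoVo 8R- and LoVo 8R+.

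Among C/D genes, SNORD41 was at 10.37, 10.96 and 12.76, the highest difference of the class in both LoVo 8R+ comparisons. SNORD45A was at 10.90, 11.54 and 12.21, and SNORD117 at 7.05, 7.77 and 8.43. These 3 stood higher in LoVo 8R- than in LoVo parental and higher again in LoVo 8R+. SNORD46 was at 9.60, 9.60 and 10.83, SNORD82 at 7.85, 7.85 and 9.03, and SNORD105 at 6.57, 6.57 and 7.67. For each of these the deposited values of LoVo parental and LoVo 8R- were tied, and LoVo 8R+ was 1.11 to 1.24 higher. SNORD95 was at 10.87, 10.06 and 10.41, and SNORD96A at 8.40, 7.61 and 7.75, lower in both LoVo-R8 arrays.

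Some C/D RNAs act in cutting or folding the ribosomal RNA precursor, and they did not move as 1 group. SNORD13 (U13), which takes part in 18S processing, was at 11.11, 10.89 and 12.30. Its related locus SNORD13P3 was at 10.76, 10.36 and 12.06, and SNORD13P1 at 4.25, 3.69 and 4.88. SNORD13P2, another related locus, was at 7.12, 6.55 and 7.04. All 4 were lowest in LoVo 8R-, and all but SNORD13P2 were highest in LoVo 8R+. SNORD13P1, SNORD13P2 and SNORD13P3 are pseudogenes by RefSeq. Their sequences are related to SNORD13, and how far these loci share signal was not tested. The U3 RNA, read by a probe set that names its 5 SNORD3 copies, was at 10.25, 10.19 and 10.27. SNORD14C and SNORD14E (U14), needed for an early cut of the precursor, were at 11.85, 10.28 and 11.46 and at 9.66, 8.04 and 9.21. SNORD14C and SNORD14E were highest in LoVo parental, lowest in LoVo 8R- and 1.17 to 1.18 higher in LoVo 8R+ than in LoVo 8R-. Other U14 copies are not among the members.

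**Figure D3:**
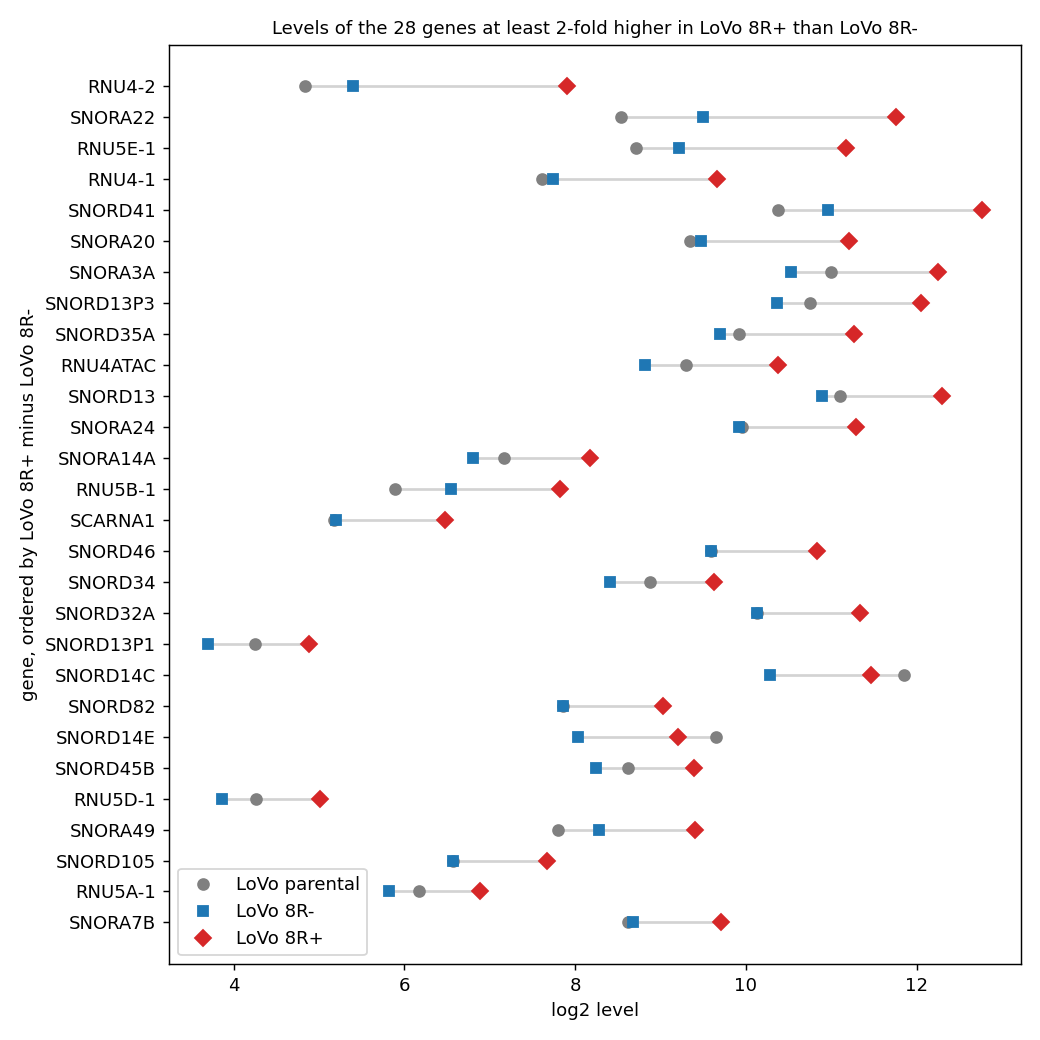
log2 levels on the 3 arrays of the 28 small RNA genes above LoVo 8R- in LoVo 8R+ by 2-fold or more, ordered by that difference from RNU4-2 at 2.50 to SNORA7B at 1.04. Grey circles are LoVo parental, blue squares LoVo 8R- and red diamonds LoVo 8R+; the red diamond lies furthest right in every row except SNORD14C and SNORD14E.

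Of the 16 Cajal body RNAs, 3 stood 2-fold or more above LoVo parental in LoVo 8R+, where 2.25% of all genes did. They were SCARNA17, SCARNA1 and SCARNA23. SCARNA17 was at 10.30, 11.07 and 11.59, and its second probe set at 10.28, 11.28 and 11.27, so the step from LoVo 8R- to LoVo 8R+ was seen on the first alone. SCARNA9 was at 8.12, 8.78 and 9.08, whereas its second probe set, at 7.48, 7.37 and 7.52, differed little between arrays. SCARNA1 was at 5.18, 5.20 and 6.47, and SCARNA23 at 4.55, 4.69 and 5.63, both below the array median on each array. SCARNA6 was at 8.72, 8.25 and 8.87. In LoVo 8R+, 14 of 16 SCARNA genes were above LoVo parental, 2 were equal to it and none was below. Over all genes, 40.9% were above LoVo parental and 44.7% below.

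Since most snoRNAs are cut from introns, each was set beside the gene that spans it. Of the members outside the RNU class, 192 in all, 190 lay within the span of a longer gene by RefSeq. The shortest such gene was measured by a probe set of its own for 91 members, in 70 genes. The table gives no strand for these members, so a spanning gene need not be the transcribed host. The 91 members had a median difference of 0.35 between LoVo 8R+ and LoVo 8R-, whereas the median for their spanning genes was 0.03. Of the 91, 12 were at least 2-fold higher, and none of their spanning genes was. The member's difference exceeded that of its spanning gene in 71 of 91 pairs. Across the 91 pairs Pearson's r was 0.16 and Spearman's rho 0.22; the pairs share arrays, and some share a spanning gene. For LoVo 8R+ against LoVo parental the medians were 0.21 and -0.05, with r of 0.16. For LoVo 8R- against LoVo parental they were 0 and -0.10, with r of 0.30.

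**Figure D4:**
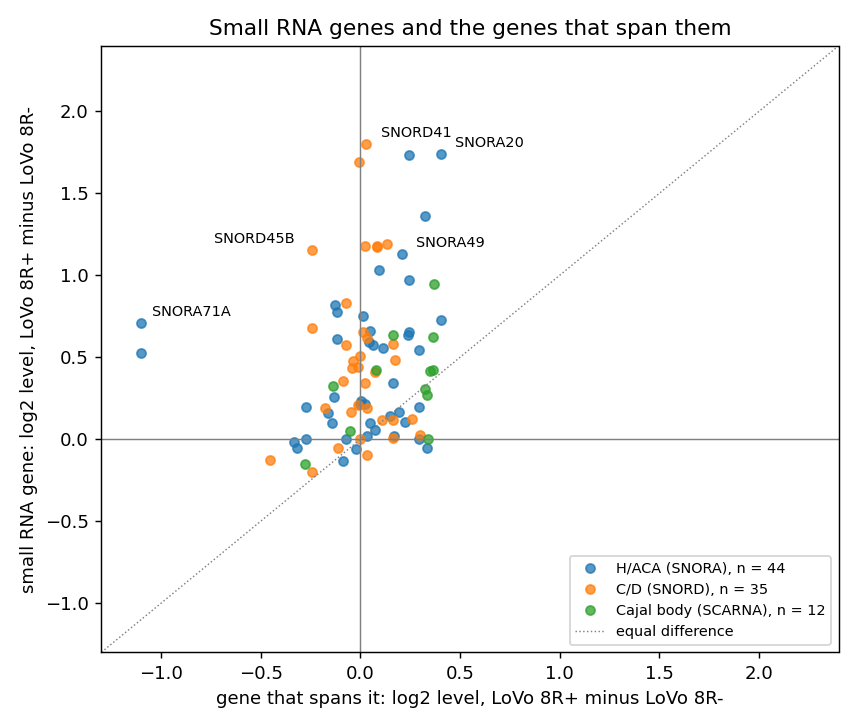
Difference between LoVo 8R+ and LoVo 8R- of 91 small RNA genes (vertical axis) against that of the gene spanning each (horizontal axis), both in log2 units, coloured by class. The dotted line marks equal differences; 71 of the 91 points lie above it, and SNORA71A lies far left because its spanning gene SNHG17 was at -1.10.

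Single pairs show how far members and spanning genes parted. TNPO2, an import receptor that spans SNORD41, was at -0.06 and -0.03 from LoVo parental in LoVo 8R- and LoVo 8R+, against differences of 0.59 and 2.39 for SNORD41. EP400, a chromatin remodeller that spans SNORA49, was at -0.30 and -0.09 from LoVo parental. TCP1, a subunit of the cytosolic chaperonin, was at 12.42 in LoVo parental, 11.50 in LoVo 8R- and 11.91 in LoVo 8R+. In LoVo 8R+ the 2 H/ACA members inside TCP1 lay on either side of it, SNORA20 at 1.87 above LoVo parental and SNORA29 at -0.87. RPL27A, a ribosomal protein gene, was at -0.55 and -0.30, while SNORA3A inside it was at -0.47 and 1.26 and SNORA3B at -1.34 and -0.37. SNHG17, a host transcript with no known protein, was at 9.30, 10.34 and 9.24, whereas SNORA71A inside it was at 9.79, 10.16 and 10.87.

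In all, 8 spanning genes hold 3 or more members outside the repeat families. RPL13A, a ribosomal protein gene, holds SNORD32A, SNORD33, SNORD34 and SNORD35A, and was not measured by a probe set of its own. SNORD32A was at 10.13, 10.13 and 11.34, SNORD33 at 11.60, 11.80 and 12.67, SNORD34 at 8.88, 8.41 and 9.62, and SNORD35A at 9.92, 9.70 and 11.26. The 4 lay 0.87 to 1.57 higher in LoVo 8R+ than in LoVo 8R-. NCL, which codes for nucleolin, was at -0.35 and -0.32 from LoVo parental in LoVo 8R- and LoVo 8R+. Of its 3 members SNORD82 was 1.18 above LoVo parental in LoVo 8R+, SNORD20 at -0.15 and SNORA75 at -0.45.

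RABGGTB, a subunit of Rab geranylgeranyl transferase, was at 0.02 and -0.23. SNORD45A, SNORD45B and SNORD45C inside it were at 1.32, 0.78 and 0.20 in LoVo 8R+ against LoVo parental. The 7 GAS5 members SNORD44, SNORD74, SNORD75, SNORD77, SNORD78, SNORD79 and SNORD81 lay between -0.36 and 0.45 in LoVo 8R+ against LoVo 8R-. The 3 members each of RPL23A, RPL3 and TBRG4 lay between -0.10 and 0.62. The spread among members of 1 spanning gene in that comparison was 0.70 in RPL13A and 1.36 in RABGGTB.

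**Figure D5:**
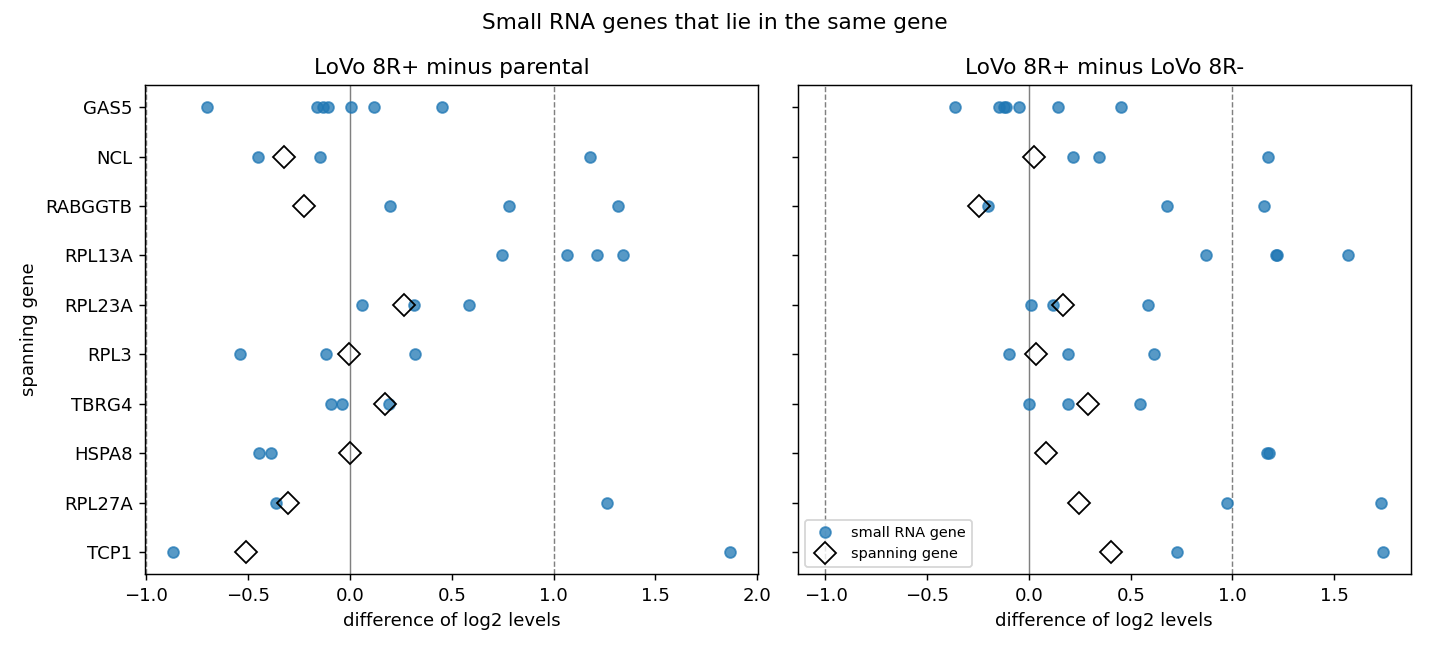
Differences of log2 levels of small RNA genes (blue circles) grouped by the gene that spans them, for LoVo 8R+ against LoVo parental and against LoVo 8R-. Open diamonds are the spanning gene where it was measured and dashed lines mark 2-fold; in RPL13A all 4 circles lie between 0.75 and 1.34 above LoVo parental, and in TCP1 they lie at 1.87 and -0.87.

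The members of RPL13A and those of HSPA8 stood apart from LoVo 8R- in the same direction. Sequence upstream of the host is therefore shown for RPL13A, with 4 C/D RNAs, and HSPA8, with the U14 genes SNORD14C and SNORD14E. Each is the stretch of 120 bases before the RefSeq start of the gene in GRCh38.p14, at chr19:49487488-49487607 on the plus strand and chr11:123062137-123062256 on the minus strand. Capitals mark matches, on either strand, to the CCAAT box motif (CCAAT), the GC box motif (GGGCGG), the heat shock element (GAANNTTC) and the TATA box motif (TATAAA); no overlap between motifs occurred in them.
RPL13A: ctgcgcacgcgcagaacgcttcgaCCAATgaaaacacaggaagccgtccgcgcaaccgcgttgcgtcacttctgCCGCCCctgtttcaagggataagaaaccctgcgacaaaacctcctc
HSPA8: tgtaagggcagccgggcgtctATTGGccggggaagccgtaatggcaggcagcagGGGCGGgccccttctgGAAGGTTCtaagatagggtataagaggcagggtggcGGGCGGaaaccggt
RPL13A holds 1 CCAAT box match and 1 GC box match. HSPA8 holds 1 CCAAT box match, 2 GC box matches and 1 match to the heat shock element, and neither window holds a TATA box match. Of 35116 promoter windows of the same length, 20.4% held the CCAAT box motif, 34.0% the GC box motif, 2.65% the heat shock element and 5.63% the TATA box motif. HSPA8, which codes for a constitutive heat shock chaperone, was at 13.65, 13.57 and 13.66. Its level in LoVo parental was the highest of all genes on that array, so a change near the top of the scale may not be seen. The widest gap between its levels was 0.09, while SNORD14C and SNORD14E inside it were at -1.57 and -1.62 in LoVo 8R- against LoVo parental.

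Proteins that bind, build or trim these RNAs were described from lists, none of which had a member at least 2-fold higher in LoVo-R8. At least 2-fold lower were 4 of the 95 listed proteins in each LoVo-R8 array, where 2.78% of all genes were lower in LoVo 8R- and 2.3% in LoVo 8R+. In LoVo 8R+ against LoVo 8R-, 0 of those 95 was 2-fold apart. Of the C/D core proteins, FBL (fibrillarin, the methyltransferase) was at 11.51, 11.68 and 11.83, and NOP58 at 11.39, 10.72 and 10.75. Of the 4 H/ACA core proteins, DKC1 (dyskerin, the pseudouridine synthase) was at 10.15, 9.44 and 9.35, and NOP10 at 10.46, 10.06 and 10.84. Of 13 assembly factors, 1 was at least 2-fold lower in both LoVo-R8 arrays, PHAX, an export adaptor of snRNAs, at -1.09 in each.

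Of 10 genes of Cajal bodies and the SMN complex, which loads Sm proteins onto snRNAs, 1 was lower, STRAP, at -1.45 and -1.13. None of 29 snRNP proteins and none of 20 genes of snRNA transcription and 3′ processing was 2-fold apart. The medians of these lists in LoVo 8R+ against LoVo 8R- were 0.13 and 0.09. Of 17 genes of the exosome and small RNA trimming, 2 were lower, the exonucleases DIS3 at -1.31 in both arrays and DIS3L at -1.50 and -1.32. Those 4 genes were low with and without the drug, and the widest difference among them between LoVo 8R+ and LoVo 8R- was 0.33, for STRAP.

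MicroRNA genes and other short genes were set beside the small RNAs, chosen after values were seen. Of 173 microRNA genes of at most 500 bases, 0 were above LoVo 8R- in LoVo 8R+ by 2-fold or more, where 0.527% of all genes were, with a median of -0.003. Of the 86 other genes of at most 500 bases, which include histone genes, 1 was, the vault RNA VTRNA1-2, at 6.22, 5.42 and 7.04. RMRP, the RNA of RNase MRP, which cuts the ribosomal RNA precursor, was at 11.56, 11.58 and 12.21. RPPH1, the RNA of RNase P, was at 9.94, 9.95 and 10.28, and TERC, the telomerase RNA with an H/ACA end, at 9.19, 8.77 and 9.34. Of the 15 short non-coding RNA genes among the 86, U1 variants included, 9 were highest in LoVo 8R+, 5 in LoVo parental and 1 in LoVo 8R-. Between LoVo 8R+ and LoVo 8R- these 15 had a median difference of 0.44, with values from -0.07 to 1.61. The median of the 207 members in that comparison was 0.20. The vault RNA VTRNA1-3, at 6.94, 6.43 and 6.84, was highest in LoVo parental, and the Y RNA gene RNY1, at 5.70, 6.10 and 6.03, in LoVo 8R-.

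Probe sets that name a small RNA together with another gene stood outside the rule. There were 85, of which 66 had distinct values. In LoVo 8R+ 4 of the 66, or 6.06%, exceeded LoVo 8R- by 2-fold or more, and 4 exceeded LoVo parental. Of all probe sets naming several genes, with equal values kept, 1.03% and 1.08% did. A probe set naming SNORD24 and RPL7A was at 8.35, 8.16 and 9.74, and a probe set naming SNORD68 and RPL13 at 8.35, 8.66 and 9.97. The probe set naming SNORD1C and SNHG16 was at 8.63, 8.10 and 9.34. None of the 66 was 2-fold lower in any comparison, where 0.114% to 1.37% of all probe sets naming several genes were. Nothing is read from these counts.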

How the data were processed

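Gene expression was measured in 3 RNA samples on Affymetrix GeneChip Human Gene 1.0 ST arrays, with 300 ng of total RNA from RNeasy mini columns as input. The authors normalised the arrays by RMA and deposited log2 values for 33297 probe sets; Affymetrix Expression Console 1.1 is named in the submitters' processing notes and R in the study's methods. No source used here names the genome build of the array annotation.

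Of these probe sets 19460 name 1 gene, 1754 several and 12083 none. A gene was given by the probe set with the highest mean level. Log2 levels were subtracted between arrays, with no test since each condition has 1 array, and genes were counted at 2-fold. The genes and lists were chosen with earlier results of these data known. Named genes were the 6 highest and 6 lowest SNORA and SNORD genes and 4 and 4 of SCARNA and RNU by mean difference of both LoVo-R8 arrays, among genes whose highest level was at or above the array median, which 113 of 207 were; the 6 highest and 6 lowest in LoVo 8R+ against LoVo 8R-; members of spanning genes with 3 or more; and genes of ribosomal RNA processing. Other genes named in the text were chosen after their values were seen.

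All 207 members matched the RefSeq table, used for names, lengths and spans. A spanning gene was meant to lie on the same strand, which could not be checked because the table holds no strand. RefSeq promoter windows of GRCh38.p14 were searched for motifs. The subtraction and the corrections were tested on simulated data. Depth does not apply to arrays, and their number limits the precision. Python 3.11.15, pandas 2.3.3, numpy 2.4.6 and statsmodels 0.14.6 were used. The settings tried besides were thresholds of 1.5-fold and 3-fold, centring of medians, loess with a span of 0.3, quantile normalisation, filters at the array's median or 25th percentile, other summaries of probe sets, and leaving out the repeat families. The members of 1 spanning gene with 3 or more are not reported here as a group.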

Additional observations from a re-analysis of the deposited data

Results flagged for a closer look

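In all, 7 small RNA genes stood on opposite sides of LoVo parental in the LoVo-R8 arrays, with LoVo 8R+ at least 2-fold from it. This difference was not tested, since each condition has 1 array. RNU4ATAC was at -0.48 from LoVo parental in LoVo 8R- and at 1.09 in LoVo 8R+. SNORA3A was at -0.47 and 1.26, and SNORA14A at -0.36 and 1.00, in the same order. SNORD13 was at -0.21 and 1.19, its related locus SNORD13P3 at -0.40 and 1.30, and SNORD35A at -0.22 and 1.34. SNORA24 was at -0.040 and 1.34, and its value in LoVo 8R- lies close to 0. Of the 36 members at least 2-fold from LoVo parental in either LoVo-R8 array, these 7 make up 19.4%, compared with 23 of 1106 among all genes, or 2.08%. The group was singled out on differences between these same arrays, so nothing is read from the distance between the shares.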

How the results depend on the processing

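Changing the fold threshold moved the counts by construction. At 1.5-fold, 9 members were higher and 15 lower in LoVo 8R-, 51 higher and 5 lower in LoVo 8R+ against LoVo parental, and 54 higher in LoVo 8R+ against LoVo 8R-. At 3-fold the same counts were 0 and 2, 8 and 0, and 8. In LoVo 8R- against LoVo parental the count of 1 higher gene became 2 under loess correction, under quantile normalisation and with every probe set counted, and 0 with dim genes left out. Under loess and quantile normalisation SNORA22 passed 2-fold, at 1.04 in each. SNORA67 no longer reached it there among lower genes, at -0.92 and -0.93. Why these corrections shifted both was not tested. With every probe set counted, the second SCARNA17 probe set was added, at 10.2769 in LoVo parental and 11.2776 in LoVo 8R-. With dim genes left out, SNORA70F was lost, since its highest level of 5.77 lies below the array median. The median of all members for LoVo 8R+ against LoVo parental was 0.32 with dim genes left out and 0.20 without the repeat families; for LoVo 8R+ against LoVo 8R- it was 0.48 and 0.34. Leaving out dim genes by the higher array keeps genes that are high in 1 array, so those medians are no support. The other 63 of 81 values of counts and overall medians stayed within 1.5 times or 0.1 of those reported, and of 594 differences of 66 named members none changed sign while past 2-fold. No paired analysis was possible because each condition has 1 array. Low signal limits 94 members whose highest level lay below the array median.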
